A study of Mus musculus with 4 samples.

Results

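The genes described here are 34 genes of rod and cone phototransduction, the cascade by which a photoreceptor turns light into an electrical signal. They were chosen by name from a fixed list, not by their values, and all 34 were found among the 24783 genes of the counts matrix. The list holds 12 genes known chiefly from rods, 10 known chiefly from cones and 12 known from both. Their counts of unique molecular identifiers (UMIs, 1 per captured RNA molecule) were summed over rod-like cells and over cone-like cells of each library and expressed as CPM, that is, scaled to a common total of all UMIs of that class.

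The cells came from retina and choroid of wild-type (WT) mice, sequenced as single cells on the 10x Genomics platform. The young groups were aged 6 to 8 weeks and the aged groups over 18 months. At each age there was 1 library without lesions (control) and 1 library 3 days after laser photocoagulation that induced choroidal neovascularization (CNV), the growth of new vessels from the choroid. Per the labels' protocols, retina and choroid with sclera were digested separately in papain, retinal cells were depleted of rods with an antibody against CD73 and magnetic beads, and both suspensions were then mixed. With 1 library per group there was no replicate, no test between groups was possible, and age or lesion and library cannot be told apart. The labels do not say how many mice or eyes each library holds, and the laser burn reaches only spots of the fundus, so each CNV library also holds cells from outside lesions.

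In the dark, channels gated by cyclic GMP hold a photoreceptor depolarized. A photon activates an opsin, the opsin activates the G protein transducin, and transducin releases a phosphodiesterase that breaks down cyclic GMP and so closes the channels. A kinase, arrestins, an RGS protein, recoverin and guanylate cyclases with their activator proteins then return the cell to darkness. Rods and cones run the same cascade with paired versions of most parts, which makes these genes markers of each cell type, and because rods are so abundant in mouse retina their RNA is a common contaminant of retinal cell suspensions.

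The 4 libraries held 6430 to 11124 cells after 246 to 303 cells per library were removed as doublets, and 124 cell barcodes occurred in 2 or more libraries. Clustering was done without the 34 genes, so their levels did not define the clusters, and clusters were scored on other markers. A further naming condition, on each cluster's leading genes, also counted some members, as given in the processing notes. All lists of 4 values below run in the order young control, young CNV, aged control, aged CNV. Rod-like cells numbered 5847, 2825, 1226 and 767, and cone-like cells 239, 191, 830 and 555. The 12 markers used to name rods summed in cone-like cells to 106%, 106%, 107% and 106% of their level in rod-like cells. Their sum thus marks photoreceptors in general. Tulp1, Unc119, Rbp3 and Aipl1 led it in cone-like cells (2169.7, 1901, 1607 and 1387 CPM in young control). Reep6, Esrrb, Nt5e, Samd11 and Fscn2 lay at or below 49.4 CPM there in each library. The 9 cone markers measured summed in rod-like cells to 17.8%, 15.1%, 21.6% and 20.7% of their cone level and set both kinds apart. Most of that sum came from Thrb (901, 729, 1308 and 1149 CPM). The markers other than Thrb and Mylk each lay at or below 31.1 CPM in rod-like cells. The cell numbers follow the rod depletion and the mixing of tissues and are not the composition of the retina. Median UMIs per cell were 1330, 1940, 3274 and 2686 in rod-like and 7535, 6310, 7652 and 5406 in cone-like cells, so the counting error was small for most members, and the intervals given below are 95% intervals that cover counting error only.

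The rod-like cells fell into 4 clusters that different libraries filled to different extents, and values across libraries are therefore also given within clusters. Cluster 0 held 53.8%, 61.1%, 5.95% and 5.87% of the rod-like cells. Cluster 2 held 43.7% of those of young control and at most 3.50% of the others. Cluster 4 held 1.85% and 18.9% of the rod-like cells in the young libraries but 79.6% and 78.6% in the aged libraries. Cluster 14 was small (0.735%, 16.5%, 12% and 14%) and stood apart by a high mitochondrial share (medians of 1.84%, 4.76%, 2.59% and 2.46% of UMIs) and low levels of the nuclear RNA Malat1 (16659, 1838, 2042 and 3097 CPM, against at least 24239.6 CPM in every other rod-like cluster and library). Of its cells, 41 joined the cone-like cluster when the members were allowed into the clustering. Its 43 young control cells carried 1597 CPM of the cone arrestin Arr3, against 45.7 CPM or less in the other rod-like clusters of that library, so young control values from cluster 14 include cone RNA.

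A motif shared by several members is shown first, because the homeodomain factor CRX, encoded by the member Crx, is known to drive most of these genes. Promoter sequences from RefSeq (GRCm38.p6) were found for 24 of the 34 members, and none was found for Gnat1, Pde6a, Pde6g, Gnb3, Gngt2, Pde6c, Cngb3, Rcvrn, Guca1b and Rp1. The letters TAATCC, on either strand (GGATTA), occurred in the 250 bases before the start of 9 of these 24 members, in 9 of 25 promoters or 36.0%. Of all 32817 promoters 6.25% held them. The letters TGCTGA or TCAGCA, part of the element that the rod factor NRL binds, occurred in 4 of the 25 (16.0%) and in 16.1% of all promoters, so their share did not stand out. A match describes letters and does not show binding. The 12 CRX-type matches are printed below in 30 bases each, 5′ to 3′ on the strand of the gene, with the match in capitals.
Sag, rod arrestin, chr1:87803581-87803610 (+): taaagaggtttaGGATTAaaaaaaaaaaaa
Gngt1, rod transducin gamma, chr6:3993952-3993981 (+): tcatattaggggGGATTAtgaagaagcttt
Cnga1, rod channel, chr5:72642963-72642992 (-): agtgtctcatttTAATCCtaatgataaact
Cngb1, rod channel, chr8:95306626-95306655 (-): ttctgcacatgcTAATCCtttgcacccggc
Cngb1, rod channel, chr8:95306593-95306622 (-): tctagtgccaatTAATCCtggctgggtctg
Gnat2, cone transducin alpha, chr3:108093035-108093064 (+): gggacaatccccGGATTAggaaggagctct
Guca1a, cyclase activator, chr17:47400646-47400675 (-): cctgttaagaagGGATTAgcagactgcaaa
Gucy2e, guanylate cyclase, chr11:69237047-69237076 (-): atcggcttggagGGATTAagggctgcagcg
Gucy2f, guanylate cyclase, chrX:142196978-142197007 (-): cactctaaatccTAATCCaggtcttggtgt
Gucy2f, guanylate cyclase, chrX:142197003-142197032 (-): gatcaatttaaaGGATTAcaagtgtcactc
Crx, chr7:15880032-15880061 (-): gtgggggtggtgGGATTAagcagacggtgc
Crx, chr7:15879959-15879988 (-): ccaccttccctgGGATTAcccttccagatc
In the GENCODE gene models of the same genome, 9 of the 12 matches lay outside the gene model and 3, those of Gngt1, Cnga1 and Gnat2, lay in an exon of the gene's model.

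Together the 24 rod and shared members made up 5.68%, 6.00%, 4.08% and 3.66% of all UMIs of rod-like cells, and the 22 cone and shared members 6.25%, 5.86%, 4.62% and 3.83% of those of cone-like cells. Both shares were lower in the aged than in the young libraries. The members' levels are listed by role in the next paragraphs and are plotted in the figure of levels by library.

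**Figure D1:**
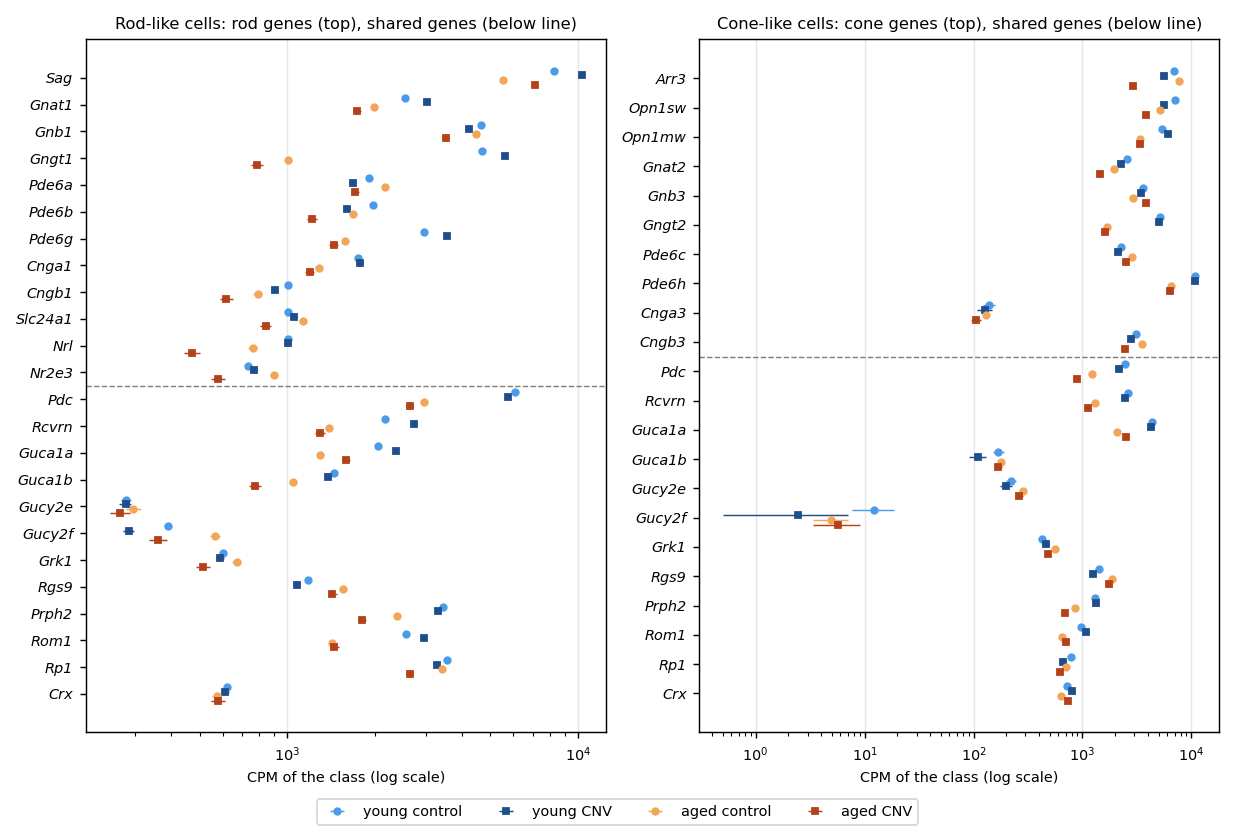
Level of each member in rod-like cells (left, 12 rod genes above and 12 shared genes below the dashed line) and cone-like cells (right, 10 cone genes above and 12 shared genes below), in CPM on a log axis. Points are the 4 libraries, bars the exact Poisson 95% intervals; Gngt1 in rods and Gngt2 in cones separate the aged (orange, red) from the young (blue) libraries most widely.

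Transducin of rods is built from Gnat1 (alpha), Gnb1 (beta) and Gngt1 (gamma). In rod-like cells Gnat1 stood at 2548, 3014, 1982 and 1732 CPM. Gnb1 stood at 4656, 4207, 4447 and 3511 CPM. Gngt1 stood at 4666, 5612, 1009 and 789 CPM. The gamma subunit was thus lower in both aged libraries by a margin that neither partner showed. The cone versions were read in cone-like cells. Gnat2, the cone alpha subunit, stood at 2537, 2268, 1955 and 1459.8 CPM. Gnb3, the cone beta subunit, stood at 3617, 3422, 2926 and 3806 CPM. Gngt2, the cone gamma subunit, stood at 5182, 4989.9, 1679 and 1612 CPM. Again only the gamma subunit of the 3 separated the young from the aged libraries by more than 1.5-fold both without lesions and after laser.

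The phosphodiesterase of rods has the catalytic subunits Pde6a and Pde6b and the inhibitory subunit Pde6g. Pde6a stood at 1907, 1685, 2172 and 1709 CPM in rod-like cells and Pde6b at 1968, 1609, 1688 and 1217 CPM. Pde6g stood at 2946, 3540.1, 1578 and 1444 CPM. The inhibitory subunit was lower in the aged libraries, and the catalytic subunits stayed within 1.5-fold in all 4 comparisons. Cones carry the catalytic subunit Pde6c and the inhibitory subunit Pde6h. Pde6c stood at 2261, 2114, 2872 and 2484 CPM in cone-like cells, and Pde6h at 10798, 10724, 6525 and 6373 CPM. The cone enzyme showed the same split, with a lower inhibitory subunit and a catalytic subunit that stayed within 1.5-fold.

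The channels gated by cyclic GMP are made of Cnga1 and Cngb1 in rods and of Cnga3 and Cngb3 in cones. Cnga1 stood at 1756, 1784, 1283 and 1194 CPM in rod-like cells and Cngb1 at 1006, 906, 791 and 618 CPM. Cnga3 stood at 139, 127, 129 and 106 CPM in cone-like cells and Cngb3 at 3110.0, 2806, 3553 and 2436 CPM. Slc24a1, the rod exchanger that returns calcium and potassium against sodium, stood at 1003, 1052, 1129.9 and 843 CPM in rod-like cells. All 5 genes stayed within 1.5-fold in every comparison of their own cell type, although Cnga1 came near it after laser (1784 against 1194 CPM).

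Arrestins end the activity of the opsins. Sag, the rod arrestin, stood at 8279, 10282, 5516 and 7118 CPM in rod-like cells, and Arr3, the cone arrestin, at 6937, 5632, 7684 and 2917 CPM in cone-like cells. Arr3 in aged CNV lay below the other 3 libraries. The opsin kinase Grk1 stood at 602, 587, 670.0 and 514 CPM in rod-like and 423, 459, 554 and 480.3 CPM in cone-like cells. Rgs9, which speeds the shutoff of transducin, stood at 1178, 1078, 1557 and 1429 CPM in rod-like and at 1419, 1254, 1858 and 1735 CPM in cone-like cells. These 2 shutoff genes stayed within 1.5-fold, and Rgs9 was higher, not lower, in the aged libraries of both cell types.

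Calcium feedback runs through recoverin (Rcvrn), the activators Guca1a and Guca1b and the cyclases Gucy2e and Gucy2f. Rcvrn stood at 2176, 2726, 1394 and 1298 CPM in rod-like and at 2597, 2473, 1316 and 1126 CPM in cone-like cells. Guca1a stood at 2049, 2362, 1301 and 1594 CPM in rod-like and at 4351, 4215, 2065 and 2507 CPM in cone-like cells. Both calcium sensors were lower in the aged libraries of both cell types. Guca1b stood at 1452, 1379.9, 1047 and 773 CPM in rod-like cells and at 169.5, 109, 177 and 169 CPM in cone-like cells. Gucy2e stood at 279, 278, 296 and 266 CPM in rod-like and at 221, 199, 286 and 263 CPM in cone-like cells. Gucy2f stood at 390.2, 285, 566 and 360.1 CPM in rod-like cells. Neither cyclase was past 1.5-fold lower by age in rod-like cells. In cone-like cells Gucy2f rested on 22, 3, 31 and 18 UMIs in all and lay at 12.3 CPM or below, so its ratios there have wide intervals.

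Pdc encodes phosducin, which binds the beta and gamma subunits of transducin. It stood at 6055, 5737, 2954 and 2637 CPM in rod-like cells and at 2471, 2174, 1211 and 885 CPM in cone-like cells, lower in the aged libraries of both. The genes of the outer segment disc proteins Prph2 and Rom1 were also lower in the aged libraries of both cell types. Prph2 stood at 3441, 3292, 2386 and 1809.9 CPM in rod-like cells and at 1304, 1335, 849.7 and 692 CPM in cone-like cells. Rom1 stood at 2562, 2954, 1424 and 1453 CPM in rod-like cells and at 961, 1079, 642 and 701 CPM in cone-like cells. Rp1, a protein of the axoneme of the outer segment, ranged from 2645 to 3549.9 CPM in rod-like and from 621 to 782 CPM in cone-like cells, within 1.5-fold throughout. Transcription factors complete the list. Crx ranged from 573 to 619 CPM in rod-like and from 633 to 797 CPM in cone-like cells. Nrl, which sets rod fate, stood at 1003, 1009, 762 and 471 CPM in rod-like cells. Nr2e3, which represses cone genes in rods, stood at 735, 768, 900.2 and 579 CPM there. Crx varied least of the 3, and Nrl was lowest in aged CNV.

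The laser comparison in young mice asked how the cascade stood 3 days after the lesion. In rod-like cells 0 of 24 members passed 1.5-fold in either direction with at least 20 UMIs over the 2 libraries, where 14.2% of 13880 genes were called higher and 11.3% lower by the same rule. The members' log2 ratios ran from -0.45 (Gucy2f) to 0.33 (Rcvrn) with a median of -0.01, beside -0.04 for all genes tested. Within clusters 0, 2, 4 and 14 the members' medians were -0.19, 0.00, -0.20 and 1.43, beside 0.01, -0.06, 0.08 and -0.14 for all genes. Cluster 14 rested on 43 control cells, and the part of the cluster mixture in the median over all rod-like cells was not tested. In cone-like cells 0 of 22 members were past 1.5-fold higher and 2 lower, where 7.14% and 7.29% of 10111 genes were called. The 2 were Guca1b, at 169.5 and 109 CPM (1.55-fold lower, 1.26 to 1.91), and Gucy2f, with 22 and 3 UMIs. Of the 12 rod members, counted in the same cone-like cells, 4 were also past 1.5-fold lower (Gnat1 at 170.1 and 105 CPM and Pde6b at 73.0 and 37.3 CPM among them), and free rod RNA was lower in the young CNV library, as described below. Its part in these 2 values was not tested.

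In the aged laser comparison 0 of 24 members were past 1.5-fold higher in rod-like cells and 3 were lower, where 16.5% of 11824 genes were called higher and 6.64% lower (23.1% in either direction). The 3 were both rod-fate factors and a cyclase. Nrl was 1.62-fold lower in aged CNV (1.51 to 1.74), Nr2e3 1.55-fold lower (1.46 to 1.66) and Gucy2f 1.57-fold lower (1.45 to 1.71). Within cluster 4, which held most rod-like cells of both aged libraries (976 and 603 cells), the 3 folds were 1.51, 1.54 and 1.55. The members' median log2 ratios in clusters 0, 2, 4 and 14 were -0.65, 0.03, -0.29 and -0.58, beside -0.07, -0.06, 0.05 and 0.03 for all genes. Over all rod-like cells 20 of the 24 members were below a ratio of 1 (median log2 ratio -0.34, beside 0.05 for all genes), and the largest value above it was that of Sag (1.29-fold higher, 1.26 to 1.32). Past 2-fold there were 0 members, and the share of all genes past 2-fold is not given. The young and aged laser comparisons use different libraries, but whether they differ was not tested.

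In cone-like cells of aged mice 1 of 22 members was past 1.5-fold lower after laser and 0 were higher, where 5.04% of 12571 genes were called lower and 10.3% higher. That member was Arr3, at 7684 CPM in aged control and 2917 CPM in aged CNV, 2.63-fold lower (2.58 to 2.69). With each cell thinned to 1000 UMIs, 99% (98.1% to 99.6%) of the cone-like cells of aged control and 84.6% (81.3% to 87.6%) of those of aged CNV held at least 1 UMI of Arr3, against 97.4% and 97.3% in the young libraries. Without thinning the shares were 99.9% and 97.5% in the aged and 99.2% and 99.5% in the young libraries. Most cone-like cells of aged CNV thus still held the gene, and fibroblast-like cells, which should lack it, gave 0.834%, 0.509%, 6.29% and 1.57% by the thinned measure, with median depths of 9983, 11233, 7465 and 7315 UMIs. Opn1sw, the short-wavelength opsin, was at 5173 and 3803 CPM, Cngb3 at 3553 and 2436 CPM, and Gnat2 at 1955 and 1459.8 CPM in the same comparison, all lower but within 1.5-fold. Gnb3 was 1.30-fold higher (1.27 to 1.33).

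**Figure D2:**
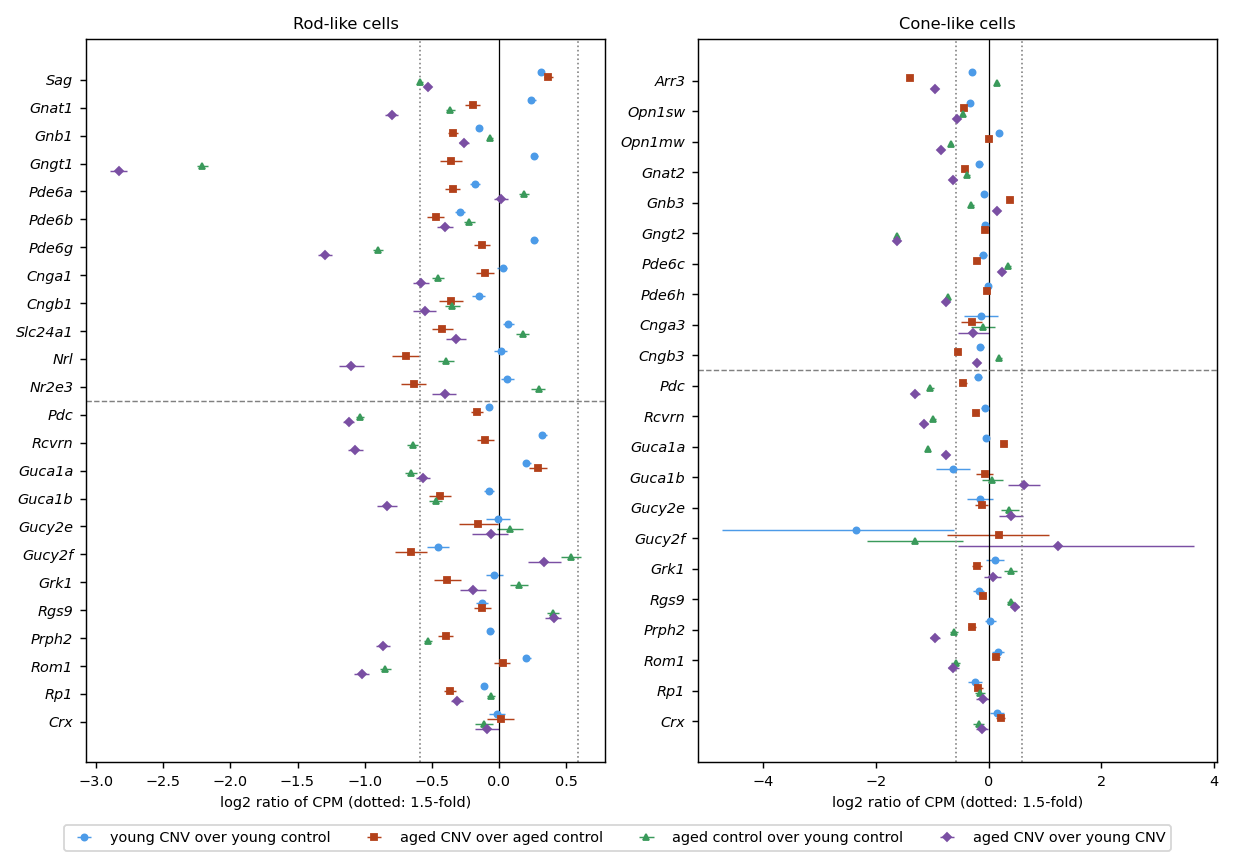
Log2 ratio of CPM for each member in rod-like (left) and cone-like cells (right) in the 4 comparisons, with 95% counting intervals; dotted lines mark 1.5-fold and the dashed line separates the shared genes. With all rod-like clusters pooled, the laser ratios of rods lie near 0 in young mice and mostly below it in aged mice. Within cluster 4 the members' medians were -0.20 in young and -0.29 in aged mice. The 2 age ratios of Gngt1 (-2.21 and -2.83) are the lowest of the rod panel.

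The age comparison without lesions held more differences. In rod-like cells 0 of 24 members were past 1.5-fold higher in aged control and 7 were lower, where 12.3% of 13463 genes were called higher and 21.8% lower. The 7 were Gngt1 (4.62-fold lower, 4.48 to 4.77), Pdc (2.05-fold), Pde6g (1.87-fold), Rom1 (1.80-fold), Guca1a (1.57-fold), Rcvrn (1.56-fold) and Sag (1.5-fold). The share of members called lower was close to that of all genes, with Gngt1 at its far end. Within cluster 4 the folds were 5.51 for Gngt1, 2.41 for Pdc, 2.23 for Rcvrn, 2.19 for Pde6g and 2.06 for Rom1, with 108 young and 976 aged cells, while Sag was at 1.33. With every cell thinned to 1000 UMIs, and shallower cells left out, 3 members in place of 7 passed, since Pde6g (ratio 0.764), Rcvrn (0.829), Guca1a (0.718) and Rom1 (0.704) then lay within 1.5-fold while Gngt1 (0.283), Pdc (0.585) and Sag (0.664) did not. The share of all genes called with thinned cells is not given.

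After laser 0 of 24 members were past 1.5-fold higher in aged than in young rod-like cells and 9 lower, where 18.1% and 18.8% of 12662 genes were called (37.0% in either direction). Gngt1 was 7.12-fold lower (6.78 to 7.47), Pde6g 2.45-fold, Pdc 2.18-fold, Nrl 2.14-fold, Rcvrn 2.10-fold and Rom1 2.03-fold. Prph2 (1.82-fold), Guca1b (1.79-fold) and Gnat1 (1.74-fold) completed the 9. Within cluster 4 alone 6 members were lower, Gngt1 among them at 6.05-fold, where 18.6% of 10772 genes were lower. The members lower in both age comparisons were Gngt1, Pde6g, Pdc, Rcvrn and Rom1. These comparisons share no library with each other, though each shares its libraries with the laser comparisons.

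The same age comparisons were read in cone-like cells. Without lesions 0 of 22 members were past 1.5-fold higher in aged control and 8 were lower, where 20.9% of 12085 genes were called higher and 16.1% lower (37.1% in either direction). Gngt2 was 3.09-fold lower (3.00 to 3.17), Guca1a 2.11-fold, Pdc 2.04-fold, Rcvrn 1.97-fold, Pde6h 1.65-fold, Opn1mw 1.59-fold and Prph2 1.53-fold, and the eighth was Gucy2f with 22 and 31 UMIs. After laser 2 members were higher and 10 lower, where 24.2% and 15.8% of 11197 genes were called (40.0% in either direction). The lower ones included Gngt2 (3.09-fold, 2.98 to 3.21), Pdc (2.46-fold), Rcvrn (2.20-fold), Arr3 (1.93-fold), Prph2 (1.93-fold) and Opn1mw (1.79-fold). Guca1a and Pde6h (both 1.68-fold), Gnat2 (1.55-fold) and Rom1 (1.54-fold) were the others. The 2 higher ones were Guca1b, at 109 and 169 CPM, and Gucy2f, with 3 and 18 UMIs. In cone-like cells the median of all genes shifted by 0.13 and 0.14 on the log2 scale in these comparisons, and the members' medians of -0.34 and -0.42 lay below it. Rod members counted in the same cone-like cells were also lower by age, past 1.5-fold in 12 of 12 without lesions (median log2 ratio -1.74) and in 10 of 12 after laser (median -0.93), and the part of rod RNA in the ratios of the shared members was not tested. The 7 members lower both times were Opn1mw, Gngt2, Pde6h, Pdc, Rcvrn, Guca1a and Prph2.

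The gene models of the members differ widely in length, and the age ratios of rod-like cells ran with it. In rod-like cells without lesions the 8 members whose gene spans under 10 kb (Gngt1 spans 3.65 kb and Rom1 1.97 kb) had a median log2 ratio of -0.65 with 5 lower past 1.5-fold, and the 16 longer ones had a median of -0.06 with 2 lower. Over all genes tested in rods 42.2% of 3468 short genes and 13.9% of 9779 longer genes were called lower. After laser 7 of 8 short members and 2 of 16 longer members were lower, beside 38.6% and 12% of all genes. In cone-like cells without lesions the counts were 3 of 7 short and 5 of 15 longer members, beside 38.8% and 8.72% of all genes. Across the 24 members in rod-like cells without lesions Spearman's rho of gene span and log2 ratio was 0.70, and across 13247 genes 0.43, both given as descriptions of 1 pair of libraries. In cone-like cells rho across the 22 members was 0.34 without lesions and 0.35 after laser. The young laser ratios of rod-like cells ran the other way, with a rho of -0.70 across members (median log2 ratio 0.22 for the 8 short and -0.07 for the 16 longer ones) and -0.16 across 13711 genes. Low age ratios were thus common among short genes as a whole, and the part of gene length, RNA quality or dissociation in the members' ratios was not tested. Malat1, at 45258 and 28142 CPM in cluster 0 of young and aged control, was also lower in the aged library.

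The members' separation between rods and cones was read inside each library. Of the 12 rod members 9 were at least 5-fold higher in rod-like than in cone-like cells in all 4 libraries, and of the 10 cone members 9 were at least 5-fold higher in cone-like cells. Counted as UMIs per cell, 4 of the 12 rod members passed, since cone-like cells held more UMIs. In CPM the 3 rod members that did not pass were Sag, Gngt1 and Pde6g. Sag stood at 4908, 4563, 3090.2 and 2449 CPM in cone-like cells, 59.3%, 44.4%, 56.0% and 34.4% of its rod level, and mouse cones are known to hold both arrestins. Gngt1 stood at 3396, 3014, 538 and 399 CPM in cone-like cells, 72.8%, 53.7%, 53.3% and 50.5% of its rod level. Pde6g stood at 2479.5, 2308, 1489 and 1094 CPM, 84.2%, 65.2%, 94.4% and 75.8% of its rod level. In cone-like cells the other 9 rod members stood at 6.68% of their rod level or less in each library. Gnat1, for instance, was at 6.68%, 3.49%, 1.57% and 2.63% of its rod level. Sag, Gngt1 and Pde6g thus stood at a larger share of their rod level than Gnat1 in each library, and the part of rod RNA in their cone values was not tested.

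Of the 12 shared members 5 (Rcvrn, Gucy2e, Grk1, Rgs9 and Crx) lay within 2-fold between the cell types in all 4 libraries. Gucy2f leaned most towards rods. Its rod level was 31.6, 117, 114 and 63.2 times its cone level, a margin as wide as that of the rod members. Guca1b was 8.56, 12.6, 5.93 and 4.58 times higher in rods, Rp1 4.54, 4.94, 4.84 and 4.26 times. Guca1a leaned the other way, with rod levels of 0.471, 0.561, 0.630 and 0.636 times its cone level. So the cyclase activator Guca1a stood higher in cone-like cells and its partner Guca1b higher in rod-like cells, on the CPM scale, in each library.

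Gnb3, the cone beta subunit, was the 1 cone member not at least 5-fold higher in cone-like cells in all 4 libraries, with 38.7, 5.53, 11.5 and 4.67 times its rod level. In rod-like cells it stood at 93.5, 619, 254 and 815 CPM (933, 3813, 1069 and 1807 UMIs). Both CNV libraries thus lay above both controls. CNV over control came to 6.62 (6.16 to 7.11) for the young pair and to 3.21 (2.97 to 3.46) for the aged pair. With cells thinned to 1000 UMIs the share of rod-like cells with at least 1 Gnb3 UMI was 6.91% (6.17% to 7.72%), 31.4% (29.6% to 33.2%), 18.4% (16.2% to 20.8%) and 44.6% (40.9% to 48.4%). Fibroblast-like cells, which should lack the gene, gave 0.779%, 0.678%, 3.21% and 4.15% by the same measure, with the median depths given above, and without thinning the shares were 9.99%, 40.8%, 37.2% and 68.6% in rod-like and 6.03%, 6.90%, 17.2% and 25.8% in fibroblast-like cells.

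The same direction was found within rod-like clusters. Gnb3 was at 79.5 CPM in control and 379.7 CPM in CNV in cluster 0 of the young libraries, and at 411 and 1286 CPM in cluster 4. In the aged libraries it was at 129 and 728 CPM in cluster 0 and at 256 and 755 CPM in cluster 4. Cluster 14 was the exception in young mice, with 2076 CPM in the 43 young control cells that also carried Arr3 and 439 CPM in young CNV, and it gave 369.5 and 1913 CPM in aged mice. Most other cone members in aged cluster 14 were also higher in CNV, with Pde6h at 559 and 2140.2 CPM and Opn1sw at 180.2 and 1176 CPM. Cngb3 was lower there, at 83.1 and 62.7 CPM. The part of cone RNA in the Gnb3 values of cluster 14 was not tested. Without cluster 14 the Gnb3 ratios of CNV over control were 7.82 and 3.02.

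The other cone members did not follow Gnb3 in rod-like cells of young mice or in cluster 4 of aged mice. Over all rod-like cells the 9 others summed to 272 CPM in young control and 179 CPM in young CNV. In the aged libraries they summed to 359.7 and 456 CPM. Arr3 was at 39.2, 32.9, 104 and 51.0 CPM. Relative to its level in cone-like cells Gnb3 stood at 2.59%, 18.1%, 8.69% and 21.4%, and the sum of the 9 others at 0.626%, 0.443%, 1.09% and 1.85%. Within cluster 4 aged CNV over aged control came to 2.95 for Gnb3. Arr3 was at 0.330 there, Opn1sw at 0.455, Gnat2 at 0.468 and Opn1mw at 0.526. Pde6c (0.541), Cngb3 (0.575), Pde6h (0.685) and Gngt2 (0.923) were also lower, and Cnga3 had few UMIs. In cluster 14 most of them were higher in aged CNV, as given above. Bipolar-like cells also carry Gnb3, at 1266, 1393, 1039.9 and 1554 CPM. The 11 bipolar markers summed to 1172, 1172, 1423 and 1704 CPM in rod-like cells, of which 1 marker was at 0 in young control. Most of that came from Prkca (862, 820.2, 987 and 1122 CPM) and Otx2 (272, 321, 370.4 and 390.3 CPM), and Grm6, a receptor of ON bipolar cells, lay at 1.40, 0.811, 4.04 and 12.2 CPM. The 9 markers other than Prkca and Otx2 each lay at or below 11.1, 9.74, 16.4 and 52.3 CPM, higher in aged CNV than in aged control, and the part of bipolar RNA in the Gnb3 values was not tested. Gnb3 lies at chr6:124834240-124840275 on the minus strand (GRCm38, GENCODE). The neighbouring genes stayed low in rod-like cells, with Cdca3 at 1.90, 2.43, 0.476 and 1.35 CPM, P3h3 at 7.42, 17.5, 8.80 and 9.02 CPM and Usp5 at 22.0, 23.7, 19.0 and 28.9 CPM. Counting was not stated to use the strand. Gnb1, the rod counterpart, stayed within 1.5-fold in both laser comparisons.

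**Figure D3:**
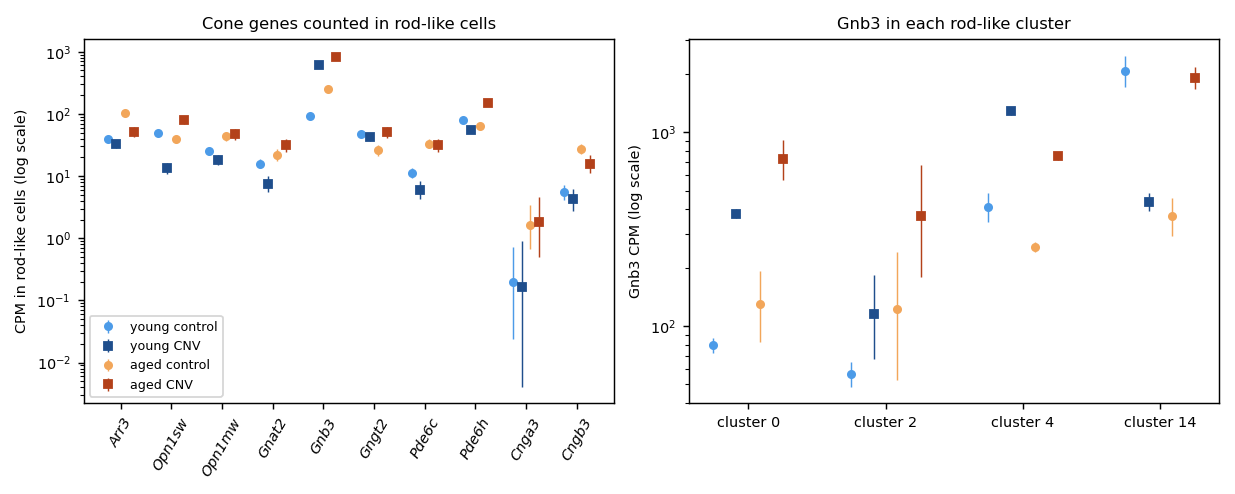
Left, CPM of the 10 cone genes in rod-like cells; right, CPM of Gnb3 in each of the 4 rod-like clusters, both on log axes with exact Poisson 95% intervals, for the 4 libraries. Gnb3 lies above the other cone genes and higher in each CNV library (squares) than in the control of the same age (circles), except in cluster 14 of young mice, with 43 control cells.

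Mouse cones carry the short-wavelength opsin Opn1sw, the medium-wavelength opsin Opn1mw, or both, in a ratio that changes from the ventral to the dorsal retina. In cone-like cells Opn1sw stood at 7093, 5622, 5173 and 3803 CPM and Opn1mw at 5378, 6097, 3378 and 3407 CPM. Opn1mw made up 43.1%, 52.0%, 39.5% and 47.3% of the UMIs of both cone opsins, a higher share in the CNV library at each age. Of the cone-like cells with at least 5 opsin UMIs (233, 190, 793 and 489 cells), those with under 10% Opn1mw were 18.0% (13.3% to 23.6%), 14.2% (9.58% to 20%), 20.3% (17.6% to 23.3%) and 24.5% (20.8% to 28.6%), by exact Clopper-Pearson intervals. Those with over 90% Opn1mw were 37.3% (31.1% to 43.9%), 47.4% (40.1% to 54.7%), 36.8% (33.5% to 40.3%) and 44.4% (39.9% to 48.9%). Cells between these limits were 44.6%, 38.4%, 42.9% and 31.1%. These intervals cover the counting of cells within 1 library, and whether the groups differ was not tested.

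The median cone-like cell had 88, 69, 60 and 36 opsin UMIs, and few UMIs make a mixed cell look pure. With cells thinned to 1000 UMIs, 220 of 234, 170 of 188, 609 of 824 and 346 of 540 cone-like cells still had at least 5 opsin UMIs. More cells were thus left out in the aged libraries. Among those kept, mixed cells were 43.2%, 37.6%, 42.7% and 34.1%. Cells dominated by Opn1mw were then 35.5%, 46.5%, 30.0% and 35.8%, and by Opn1sw 21.4%, 15.9%, 27.3% and 30.1%. Rod-like cells, which should lack both, gave 48.4, 13.3, 39.5 and 80.8 CPM of Opn1sw. Cluster 14 alone gave 356 of 483, 48 of 82, 39 of 166 and 150 of 179 of these UMIs. The part of the retina each library was taken from is not given in the labels, so a difference in sampled region and a difference in opsin choice cannot be told apart.

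**Figure D4:**
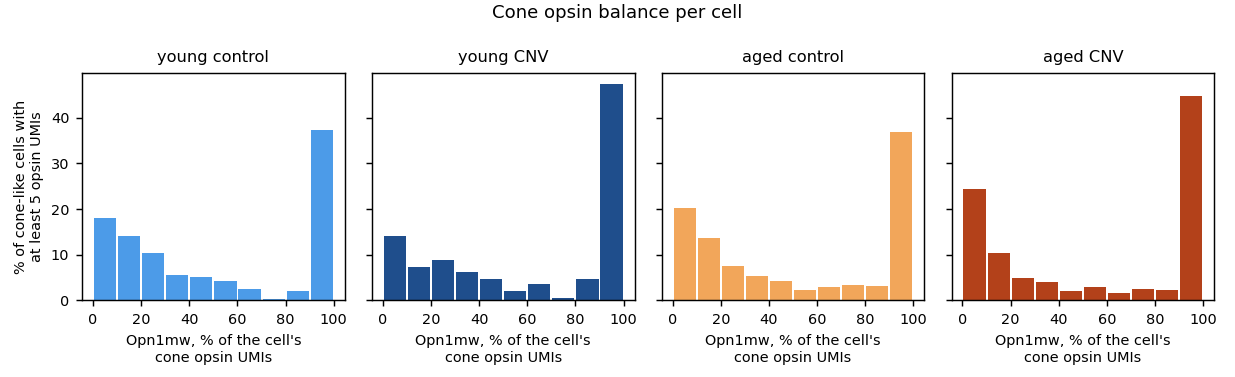
Share of Opn1mw among the UMIs of both cone opsins per cone-like cell, in bins of 10 percentage points, for cells with at least 5 opsin UMIs in each library. The bars are percent of those cells; the highest bar in each library is the last, with nearly pure Opn1mw, and the cells below 10% form a second, lower peak.

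Members were also counted outside photoreceptors, where RNA free in the suspension gives UMIs to cells that do not express a gene and keeps the genes of 1 source in 1 ratio. For 10 of the 12 rod members (Gnb1 and Slc24a1 were left out after their values were seen, since other classes express them) the summed level over 6 other classes had a median of 1064, 216, 203 and 118 CPM. These classes were Müller-glia-like, retinal-pigment-epithelium-like (RPE-like), endothelial-like, fibroblast-like, macrophage/monocyte-like and pericyte/smooth-muscle-like cells. The young control library was 6.44 times (6.31 to 6.58) the young CNV library in CPM and 5.14 times (5.03 to 5.25) in UMIs per cell. The aged pair was at 1.11 (1.07 to 1.15) in CPM and 0.974 (0.938 to 1.01) per cell. With the called doublets kept the CPM ratios were 4.25 for the young and 1.67 for the aged pair. The aged ratio pools classes that ran in different directions. Aged control and aged CNV were at 662 and 838 CPM in Müller-glia-like and at 112 and 133 CPM in endothelial-like cells. The other classes were higher in aged control. Fibroblast-like cells were at 281 and 159.7 CPM and macrophage/monocyte-like cells at 289 and 104 CPM. RPE-like cells were at 117 and 87.1 CPM and pericyte/smooth-muscle-like cells at 125 and 83.0 CPM. In fibroblast-like cells of young control the 10 genes lay between 2.33% (Pde6a) and 5.38% (Gngt1) of their rod levels, and in young CNV between 0.306% and 0.592%. Some other classes had wider ranges. RPE-like cells of aged CNV ran from 0.0858% (Cnga1) to 1.82% (Cngb1), and pericyte/smooth-muscle-like cells of aged CNV from 0% (Pde6b) to 1.06% (Gngt1). Müller-glia-like cells held the highest level in 3 of the libraries and up to 838 CPM in aged CNV, and macrophage/monocyte-like cells the highest in young control with 1860.1 CPM. The 10 cone members had medians of 132, 169.8, 267 and 324 CPM, higher in the aged libraries, which also held more cone-like cells. This list keeps Gngt2, which made up 191 of 225 CPM in endothelial-like cells of young control and 171 of 197 CPM in macrophage/monocyte-like cells of young CNV, so its sums are not free RNA alone.

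**Figure D5:**
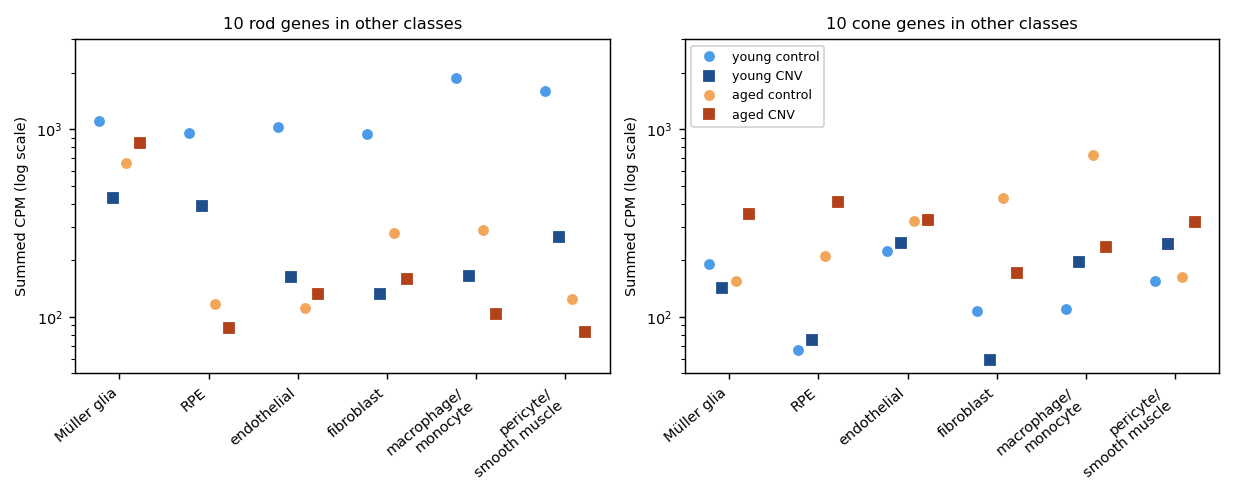
Summed CPM of 10 rod genes (left) and 10 cone genes (right) in 6 classes that are not retinal neurons, on log axes, for the 4 libraries. Young control stands highest in rod RNA in every class shown, and aged libraries stand above young control in cone RNA in fibroblast-like and RPE-like cells.

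Some members stood well above that free level in some other class, by a limit of 5 times the list's median in every library with at least 50 cells of the class. Slc24a1 was at 757, 743, 1179.8 and 794 CPM in RPE-like cells, near its rod level. Rgs9 was at 271, 288, 347 and 403 CPM in the same cells. Crx was at 193, 189, 167 and 159 CPM in bipolar-like cells, which are known to share this factor with photoreceptors, and the channel subunit Cngb3 was at 26.2, 213, 363 and 253 CPM there. Gngt2, the cone gamma subunit, was at 191, 224, 109 and 156 CPM in endothelial-like cells and at 70.8, 171, 161 and 143 CPM in macrophage/monocyte-like cells. Gnb1, a beta subunit used widely in the body, passed the limit in T/NK-like, amacrine-like and epithelium-like cells. Gucy2f was at 160.2 and 153 CPM in melanocyte-like cells of the 2 libraries that held enough of them.

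A list of 36 other genes of the photoreceptor pathway (retinoid enzymes, channels, trafficking and matrix proteins and transcription factors) was read by the same rule, although some of its genes also served to name the clusters. In rod-like cells 35 of them were measured. Past 1.5-fold were 2 higher and 1 lower after laser in young mice, 2 and 3 after laser in aged mice, 2 and 6 by age without lesions and 3 and 7 by age after laser. Of all genes tested, 14.2%, 16.5%, 12.3% and 18.1% were higher in these comparisons and 11.3%, 6.64%, 21.8% and 18.8% lower. Impg2, a proteoglycan of the matrix around photoreceptors, was the one higher in all 4 comparisons, at 311, 534, 467 and 861 CPM. Rgs9bp, the anchor of Rgs9, was lower after laser in aged rod-like cells, at 388 and 244 CPM, as was the calcium channel gene Cacna1f, at 269 and 169.7 CPM. By age Aipl1, the chaperone of the phosphodiesterase, was at 856 and 382 CPM without lesions (2.24-fold lower, 2.12 to 2.36) and at 975 and 432 CPM after laser (2.25-fold lower). Unc119, which carries transducin, was at 1884 and 958 CPM without lesions and 2086 and 1014 CPM after laser.

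In cone-like cells all 36 were measured, with 0 higher and 1 lower after laser in young mice, 2 and 1 in aged mice, 0 and 7 by age without lesions and 4 and 8 by age after laser. Of all genes tested, 7.14%, 10.3%, 20.9% and 24.2% were higher in these comparisons and 7.29%, 5.04%, 16.1% and 15.8% lower. Aipl1 was at 1387 and 779.7 CPM without lesions and at 1415 and 723 CPM after laser. Unc119 was at 1901 and 1120.2 CPM without lesions and at 1846 and 968 CPM after laser. Both were thus lower in the aged libraries of cones as of rods. Rgs9bp was 1.60-fold lower (1.47 to 1.74) after laser in aged cone-like cells, close to its 1.59-fold in aged rod-like cells.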

How the data were processed

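The authors deposited 1 matrix of raw UMI counts per gene and cell for 4 libraries, made with Cell Ranger and Seurat 4.1.1 on mm10, per the submitters' processing notes; the sources used here do not say how cells were filtered. The matrix holds no cell below 500 UMIs. Cells were assigned to libraries by the prefix of their column names; 0 columns were left without a library. Cells had to have 200 or more genes and no more than 25% of UMIs from mitochondria, and doublets were removed by a simulated-doublet score above 0.200, with 303, 290, 246 and 272 cells called. The remaining 35590 cells were clustered with scanpy 1.11.5 and leidenalg 0.10.2 into 44 clusters, without the 34 members and 36 pathway genes. Settings were 2000 variable genes, 40 components, 20 neighbours and resolution 1.00. Clusters were scored on markers that hold no member but share some genes with the pathway list. A name also depended on how many markers of each class were among the cluster's 10 leading genes. That count included the members Gnat1, Pde6a and Nr2e3 for rods and Arr3, Gnat2, Pde6h and Opn1sw for cones. The margin for naming was set after the cluster table was seen.

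Counts were summed per class and library. CPM have exact Poisson intervals, ratios exact conditional binomial intervals and shares Clopper-Pearson intervals, all at 95%. A member was called by size alone, past 1.5-fold with at least 20 UMIs, and the same rule over all genes gave the background. Scaling alternatives used edgeR 4.0.16. The ratio code was tested on simulated data. All 34 members are named, with full values for those past 1.5-fold and for subunits of a complex, and up to 3 pathway genes per side are candidates for naming. The members and lists were chosen with earlier results of these data known.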

Additional observations from a re-analysis of the deposited data

Results flagged for a closer look

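The laser ratios of 7 members lay on opposite sides of 1 in young and aged mice, each with a counting interval clear of 1; the difference between the ages was not tested, and no replicate error is known. In rod-like cells these were Gnat1 (1.18 in young and 0.874 in aged mice), Gngt1 (1.20 and 0.781), Pde6g (1.20 and 0.915), Slc24a1 (1.05 and 0.746), Nr2e3 (1.04 and 0.644) and Rcvrn (1.3 and 0.932). In cone-like cells it was Gnb3 (0.946 and 1.30). In young mice the rod values above 1 were not found within cluster 0, where Gnat1 was at 0.841, Gngt1 at 0.761, Pde6g at 0.827, Slc24a1 at 0.805, Nr2e3 at 1.0 and Rcvrn at 0.865. Within cluster 4 of young mice Gnat1 was at 0.910, Gngt1 at 0.879, Pde6g at 0.941, Slc24a1 at 0.711, Nr2e3 at 0.938 and Rcvrn at 0.870. Within cluster 2, with 2553 and 99 cells, the ratios were 0.906 for Gnat1, 0.943 for Gngt1, 1.05 for Pde6g, 0.95 for Slc24a1, 1.04 for Nr2e3 and 1.01 for Rcvrn. Cluster 14, with 0.735% of the rod-like cells of young control and 16.5% of those of young CNV, gave 3.33 for Gngt1 and 13.4 for Gnat1, against 43 control cells that also carried cone RNA. Why the values over all rod-like cells lay above 1 was not tested.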

How the results depend on the processing

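No paired analysis was possible because each group has 1 library, and leaving out a replicate was not possible for the same reason. Counts of members past the threshold moved by over 1.5 times as follows. At a ratio of 5 to 4 they were 2 and 14 in rods after laser (young, aged), 15 and 17 in rods by age (without lesions, after laser), and in cones 6 after aged laser and 15 by age without lesions. At 2-fold they were 0 in rods after aged laser and 2 by age without lesions, and in cones 1 after young laser and 4 in each age comparison. Thinning to 1000 UMIs gave 3 in rods by age without lesions, and 1 and 2 in cones after young and aged laser. A minimum of 50 UMIs gave 1 in cones after young laser, and keeping doublets gave 2 after aged laser. The share of all genes called is not given for these settings, so the counts do not show whether members stood out from other genes. The largest rod-like cluster alone (cluster 0) gave 17 after aged laser, with 73 and 45 cells, where 22.1% of all genes were lower and 18.6% higher. In settings added after seeing the data, cluster 4 alone gave 3 after young laser, and cluster 14 alone gave 20, 13 and 20 in rods after young laser, after aged laser and by age without lesions. Over all genes 12.3% were lower and 22.7% higher in that cluster 4 comparison, and in cluster 14, in the same order, 31.1%, 16.7% and 23.3% lower and 27.1%, 17.6% and 27.9% higher. Cluster 14 alone also reversed 7 ratios, those of Gnb3 after young laser (0.211) and, by age without lesions, of Sag (1.09), Pde6g (2.45), Pdc (2.68), Rcvrn (2.21), Guca1a (1.0) and Rom1 (4.05). Its 43 young control cells carried Arr3, as given above. A further 326 comparisons of the 44 named ratios kept all rod-like clusters or left out only cluster 14. Of these, 226 counted as the same as the main value, 100 as moved and 0 as reversed. By over 1.5 times 2 of them moved, both of Gucy2f in cones, and the largest move was 1.89 times. The printed intervals cover counting error only and not the choice of processing.

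The share of UMIs from members moved with cells of at least 1000 UMIs to 5.91% and 6.06% in young control and young CNV rods. With thinning it moved to 5.43%, 6.11%, 4.37% and 3.74% in rods of the 4 libraries and to 5.93%, 4.39% and 3.78% in cones of young CNV, aged control and aged CNV. Clustering with the members gave 3.69% in aged CNV rods, and doublets kept gave 4.56% in aged control cones. The young free RNA ratio was 4.25 with doublets kept, 6.03 with thinning and 5.14 per cell. The aged ratio was 1.67 with doublets kept, 1.03 when clustered with the members and 0.974 per cell, which reversed it. Counted as UMIs per cell, 4 of 12 rod members in place of 9 were at least 5-fold higher in rods, since cone-like cells held more UMIs. With limits of 20% and 80% cones dominated by Opn1sw were 32.2%, 21.6%, 34% and 35.0%. The cause of the other moves was not tested. Depth limits Gucy2f in cones and Cnga3 in rods most.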
